A study of Mus musculus with 9 samples.

Results

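Tissue-resident macrophages of the mouse heart were followed through 9 genes that are widely used to recognise them, Timd4, Vsig4, Mrc1, Cd163, Folr2, Retnla, Cbr2, Adgre1 and Maf. The genes were chosen by symbol. All 9 were found among the 24964 symbols of the count table, and all 9 were among the 14347 genes with enough counts to be tested. Bulk RNA was sequenced from 9 hearts of male C57BL/6JR mice, given as 8 weeks old, in 3 groups of 3 mice. In the MI 28 d and MI 7 d groups the left anterior descending (LAD) coronary artery was tied, which causes a myocardial infarction (MI), and the names give the days after surgery. Sham mice were anaesthetised and had the chest opened in the same way but kept an open artery. The labels name the tissue only as heart, so the share of scar, border and remote muscle in each sample is not known, and neither is the day on which the sham hearts were taken.

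Resident macrophages settle in the heart largely before birth, renew themselves largely without monocytes, clear dying cells and debris, and lie close to vessels and cardiomyocytes. After an infarct, monocytes enter from the blood and become macrophages that at first carry few of the resident markers. In mice, TIMD4 and FOLR2 are surface markers of the self-renewing cells. ADGRE1, the F4/80 antigen, marks most mouse macrophages whatever their origin, and MRC1 and MAF are also found outside the resident pool. In bulk RNA, fewer cells of a type and less RNA per cell cannot be told apart, and several of these genes are also expressed by other cells.

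Totals were 15300344 to 15770389 counts in MI 28 d libraries, 18355720 to 19238101 in MI 7 d libraries and 12351525 to 13629120 in sham libraries. Levels below are CPM, counts as a share of the library total after that total was scaled by TMM. TMM computes a scaling factor on the assumption that most genes do not differ between libraries. Many genes did differ here, as the shares of all tested genes given below show. Fold changes are log2 values from edgeR with their SE, and "rose", "fell" and "called" mean a Benjamini-Hochberg adjusted p under 0.05 over all tested genes. Summed cardiomyocyte markers were 38886 to 66575 CPM at MI 28 d, 18448 to 23137 CPM at MI 7 d and 109200 to 113280 CPM in sham hearts, so the libraries held heart muscle. Sham libraries were far more alike (biological coefficient of variation 2.76%) than MI 28 d (24.1%) or MI 7 d (17%) libraries. The adipocyte hormone gene Adipoq stood at 130, 0.496 and 122 CPM in MI 28 d libraries 1, 2 and 3, at 0.529, 3.12 and 217 CPM in MI 7 d libraries and at 1.22, 1.75 and 0.422 CPM in sham libraries. The 3 libraries above 100 CPM, MI 28 d 1, MI 28 d 3 and MI 7 d 3, are called Adipoq-rich below, and each result is given with and without them where they change it. Leaving them out left 1 MI 28 d heart and 2 MI 7 d hearts, so that fit holds no spread between MI 28 d hearts. Its spread estimate is shared with the 3 sham libraries, which were the most alike. Plin1, the fat droplet coat gene, was 42.6 to 71.1 CPM in those 3 libraries and at most 1.09 CPM in the others. MI 28 d library 3 also had the most mesothelial RNA, with 969 CPM summed over mesothelial markers, against 159 and 201 CPM in the other MI 28 d libraries.

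Timd4 encodes a receptor for phosphatidylserine by which macrophages bind dying cells. It stood at 2.99, 0.496 and 8.75 CPM at MI 28 d, at 0.433, 0.743 and 0.529 CPM at MI 7 d and at 2.53, 1.84 and 2.79 CPM in sham hearts. Every MI 7 d heart was below every sham heart, while the MI 28 d hearts lay on both sides of the sham range. These are low levels, with 8 to 151 reads in a library.

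Vsig4 encodes CRIg, a macrophage receptor for fragments of complement C3. Its levels were 2.65, 0.310 and 11.6 CPM at MI 28 d, 0.625, 2.03 and 2.50 CPM at MI 7 d and 0.872, 1.56 and 1.69 CPM in sham hearts. The 2 Adipoq-rich MI 28 d hearts were above all sham hearts and the third was below them, and the MI 7 d hearts overlapped the sham hearts. Vsig4 had 5 to 200 reads in a library.

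Mrc1 encodes the mannose receptor CD206, which takes up glycoproteins and collagen fragments. It was at 66.2, 61.8 and 101 CPM at MI 28 d, at 95.2, 97.5 and 153 CPM at MI 7 d and at 50.8, 51.9 and 57.8 CPM in sham hearts. All 6 infarcted hearts were above all sham hearts. The highest value was that of the Adipoq-rich MI 7 d heart.

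Cd163 encodes the scavenger receptor for haptoglobin-haemoglobin complexes. It was at 18.3, 7.82 and 31.6 CPM at MI 28 d, at 1.25, 3.76 and 14.0 CPM at MI 7 d and at 19.02, 16.5 and 22.2 CPM in sham hearts. All 3 MI 7 d hearts were below all sham hearts, with the Adipoq-rich one nearest to them, and MI 28 d hearts spread to both sides.

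Folr2 encodes folate receptor beta. It was at 15.2, 5.46 and 45.1 CPM at MI 28 d, at 7.94, 9.90 and 26.7 CPM at MI 7 d and at 17.0, 18.3 and 20.4 CPM in sham hearts. In both infarct groups 2 hearts lay below the sham range and an Adipoq-rich heart lay above it. Of the 50-base stretches of Folr2 transcripts, 52.6% are shared with Gm10602, which overlaps it on the opposite strand. Gm10602 is not among the symbols of the count table, but the strand setting of the counting is not given, so the counts of Folr2 are uncertain.

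Retnla encodes RELM-alpha, a secreted protein that mouse macrophages make in response to interleukin 4 and interleukin 13 through STAT6. It was at 19.3, 2.79 and 51.7 CPM at MI 28 d, at 0.0962, 0.297 and 0.914 CPM at MI 7 d and at 4.45, 2.94 and 4.65 CPM in sham hearts. The MI 7 d values rest on 2, 6 and 19 reads, and all were below every sham value. At MI 28 d the Adipoq-rich hearts were far above the sham hearts and the remaining heart was just below them.

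Cbr2 encodes a carbonyl reductase, an enzyme that reduces aldehydes and ketones. It was at 19.2, 9.24 and 37.3 CPM at MI 28 d, at 2.84, 3.96 and 14.8 CPM at MI 7 d and at 21.7, 23.3 and 24.8 CPM in sham hearts. The order of the hearts within each infarct group was the same as for Cd163: all MI 7 d hearts were below the sham hearts, and MI 28 d library 2 was the lowest of its group. Of its 50-base stretches 12.1% are shared with Gm11771, which is not among the symbols of the count table.

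Adgre1, the F4/80 gene, was at 39.2, 48.0 and 38.1 CPM at MI 28 d, at 214, 250 and 293 CPM at MI 7 d and at 22.3, 24.9 and 24.4 CPM in sham hearts. The 3 groups did not overlap, and it was the only one of the 9 whose highest MI 28 d heart was not library 3 but library 2. Maf, the gene of the c-Maf transcription factor, which is active in mature macrophages, was at 25.02, 26.6 and 88.6 CPM at MI 28 d, at 43.1, 53.0 and 61.8 CPM at MI 7 d and at 11.3, 10.8 and 11.3 CPM in sham hearts. Every infarcted heart was above every sham heart, and the MI 28 d hearts surrounded the MI 7 d hearts. Maf overlaps Gm15655 on the opposite strand and shares 4.64% of its 50-base stretches with other genes, so part of its counts is uncertain too.

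**Figure D1:**
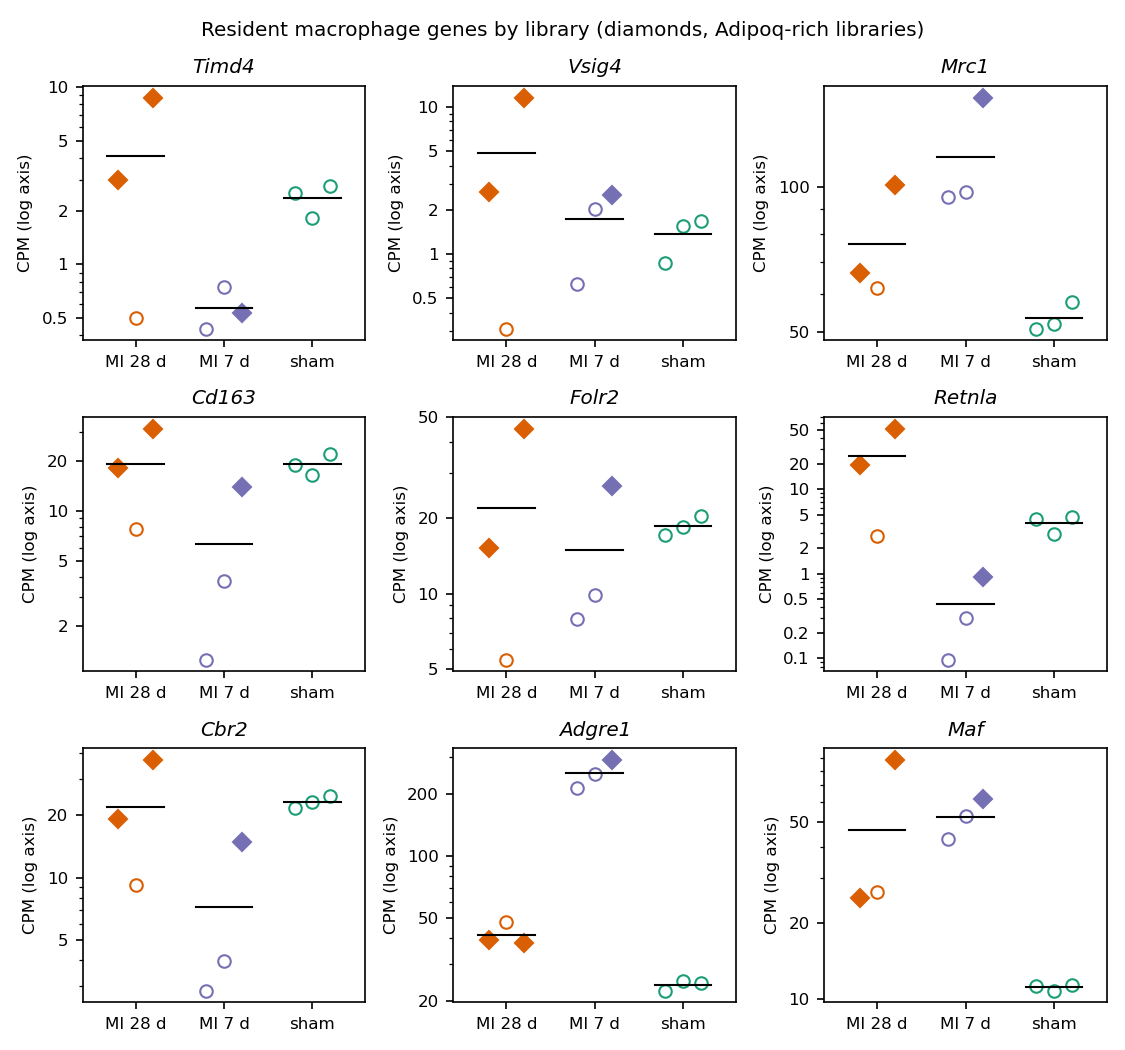
CPM of the 9 genes on a log axis in each library of the MI 28 d, MI 7 d and sham groups (points, n = 3 each; lines, group means; filled diamonds, Adipoq-rich libraries). Adgre1 separates all 3 groups, Timd4, Cd163, Retnla and Cbr2 are lower in every MI 7 d heart than in every sham heart, and the MI 28 d hearts are spread widely for most genes.

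Per kb of exon, the scale on which genes can be compared, the order in sham hearts was Cbr2 (17.5 ± 1.14 CPM per kb, SD, n = 3), Folr2 (12), Mrc1 (8.39), Adgre1 (7.38), Retnla (6.70), Cd163 (3.52), Maf (1.35), Timd4 (1.10) and Vsig4 (0.927). At MI 7 d Adgre1 led with 77.9 CPM per kb, Mrc1 followed with 18.1, and Timd4 was the lowest at 0.261 CPM per kb. At MI 28 d Retnla led with 41.1 CPM per kb, but with an SD larger than the mean on the CPM scale (24.6 ± 24.9 CPM). In sham hearts the ranges of Retnla, Adgre1 and Mrc1 lay close together, and so did those of Timd4 and Vsig4. The lengths come from the GENCODE M21 annotation of GRCm38, and the annotation used for the counts is not given. For Maf that length, 8241 bases, is longer than its whole RefSeq span (8:115703253-115706894), so its place in the order is uncertain.

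The genes lie on different chromosomes apart from Timd4 and Cbr2, which are both on chromosome 11 (GRCm38, RefSeq 11:46810786-46844333 and 11:120729485-120732025) and far apart. The others are at 7:101839988-101857190 (Folr2), 2:14229414-14332023 (Mrc1), 6:124304636-124330529 (Cd163), 16:48842609-48844461 (Retnla), 17:57358581-57483529 (Adgre1), X:96247201-96293438 (Vsig4) and 8:115703253-115706894 (Maf), and all are protein-coding. Promoters of 7 of the 9, in 8 windows of 300 bases from 250 before to 50 after an annotated start, were searched on both strands for GAGGAA (the core bound by PU.1, the macrophage lineage factor), TGCTGA (a core of the sites MAF proteins bind) and TTCNNNNGAA (the type of site STAT6 binds). The promoters of Retnla, Cbr2 and Cd163 are shown as examples of genes that were low at MI 7 d. Those of Retnla and Cbr2 hold all 3 motifs, and that of Cd163 holds none. Timd4, also lower in every MI 7 d heart than in every sham heart, held only TGCTGA and is not shown. The sequences were taken from RefSeq (GRCm38) and are read 5′ to 3′ along the gene. Capitals mark the motif matches, which did not overlap here.
Retnla, chr16:48842359-48842658, plus strand: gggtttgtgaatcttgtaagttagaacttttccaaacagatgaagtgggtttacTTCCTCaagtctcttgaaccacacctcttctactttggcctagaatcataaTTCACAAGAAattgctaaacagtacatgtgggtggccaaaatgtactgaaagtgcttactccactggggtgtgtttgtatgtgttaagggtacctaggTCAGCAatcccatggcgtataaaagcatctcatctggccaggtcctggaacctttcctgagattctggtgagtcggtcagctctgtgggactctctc
Cbr2, chr11:120731972-120732271, minus strand: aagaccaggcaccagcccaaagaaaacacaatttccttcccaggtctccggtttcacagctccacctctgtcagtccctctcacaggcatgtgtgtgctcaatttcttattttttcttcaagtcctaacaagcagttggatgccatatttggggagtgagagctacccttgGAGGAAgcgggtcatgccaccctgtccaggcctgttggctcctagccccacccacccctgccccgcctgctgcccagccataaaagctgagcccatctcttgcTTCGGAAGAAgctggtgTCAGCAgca
Cd163, chr6:124304401-124304700, plus strand: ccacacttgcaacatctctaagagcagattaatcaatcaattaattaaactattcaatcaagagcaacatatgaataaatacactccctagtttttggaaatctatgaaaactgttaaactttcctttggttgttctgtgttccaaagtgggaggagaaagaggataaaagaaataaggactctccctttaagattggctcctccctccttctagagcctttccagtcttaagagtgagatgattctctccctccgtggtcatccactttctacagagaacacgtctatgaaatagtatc

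With the annotated start counted as the first base and no position 0, the STAT6 type match begins at position -145 in Retnla and at 25 in Cbr2. It occurred in 2 of the 8 windows, and in 6.95% of 32851 mouse promoters of this length. GAGGAA occurred in 4 of the 8 windows, those of Cbr2, Mrc1, Retnla and Vsig4, and in 28.3% of all promoters. TGCTGA occurred in 6 of the 8, those of Timd4, Folr2 (both windows), Cbr2, Retnla and Vsig4, and in 19.5% of all promoters. A match is a run of letters and does not show binding. Adgre1 and Maf had no window in the table used.

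In the MI 7 d hearts, against sham hearts, the resident genes split. Adgre1, Maf and Mrc1 rose, Timd4, Cbr2 and Retnla fell, and Cd163, Folr2 and Vsig4 were not called. Thus 3 of the 9 rose, where 39.0% of all tested genes did, and 3 fell, where 35.4% did, so that 74.4% of all tested genes were called in this comparison and the count of 6 of 9 is near that background. The median of the 9 was -0.32 and that of all genes 0.06. In 3 genes all MI 7 d hearts were above all sham hearts (42.6% of all genes), and in 4, Cd163 being the fourth, all were below (38.2% of all genes).

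Adgre1 averaged 252 ± 39.5 CPM at MI 7 d and 23.9 ± 1.37 CPM in sham hearts (SD, n = 3 each), a 10.6-fold rise (log2 3.40 ± 0.14, edgeR adjusted p = 8.558e-08). Maf averaged 52.6 ± 9.40 and 11.1 ± 0.308 CPM in the MI 7 d and sham hearts, a rise of 2.24 ± 0.46 on the log2 scale (edgeR adjusted p = 0.001358). Mrc1 averaged 115 ± 32.9 CPM at MI 7 d and 53.5 ± 3.78 CPM in sham hearts (log2 1.11 ± 0.22, edgeR adjusted p = 0.001293). The 95% intervals of these log2 changes were 3.08 to 3.72 for Adgre1 and 0.61 to 1.61 for Mrc1, and they do not meet.

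Retnla had the largest fall of the 9, to 0.436 ± 0.426 CPM at MI 7 d, against 4.01 ± 0.933 CPM in sham hearts (log2 -3.18 ± 1.10, edgeR adjusted p = 0.02416). Timd4 was at 0.568 ± 0.159 CPM at MI 7 d and 2.39 ± 0.491 CPM in sham hearts (log2 -2.06 ± 0.82, edgeR adjusted p = 0.04435). Cbr2 was at 7.21 ± 6.62 CPM at MI 7 d and 23.2 ± 1.52 CPM in sham hearts (log2 -1.69 ± 0.62, edgeR adjusted p = 0.03093). These 3 falls are wide in error, and each lost its call when a single library was left out. Without MI 7 d library 1 or 2, or sham library 1 or 3, none of the 3 was called, with adjusted p of 0.05332 to 0.1171. Cbr2 was not called without sham library 2 either (0.06556), nor Timd4 without sham library 2 (0.06156), MI 7 d library 3 (0.09753) or MI 28 d library 1 (0.05179).

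Cd163 was at 6.34 ± 6.76 CPM at MI 7 d and 19.2 ± 2.89 CPM in sham hearts, a difference of -1.60 ± 0.72 (edgeR adjusted p = 0.06659) whose 95% interval runs from -3.21 to 0.007. It was called without MI 7 d library 3 (-2.94, adjusted p = 0.00244) and without MI 28 d library 3 (adjusted p = 0.04157). Folr2 differed by -0.32 ± 0.66 (edgeR adjusted p = 0.6774) with an interval from -1.81 to 1.17, and Vsig4 by 0.32 ± 1.01 (edgeR adjusted p = 0.7865) with an interval from -1.94 to 2.58. For Folr2 and Vsig4 neither a fall nor a rise of 2-fold can be told from no change with 3 hearts a group.

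Without the Adipoq-rich MI 7 d library 3 and both such MI 28 d libraries, MI 7 d against sham gave 8 of 9 called. Timd4 (-2.02), Folr2 (-1.06), Cbr2 (-2.78), Cd163 (-2.95) and Retnla (-4.31) were lower, where 36.1% of all genes were. Adgre1 (3.27), Maf (2.10) and Mrc1 (0.84) were higher, where 40.1% of all genes were. Vsig4 was not called (-0.06). This fit rests on 2 MI 7 d hearts, and its spread estimate is shared with the sham libraries, which were far more alike. The SE of Cbr2 was 0.16 in this fit and 0.62 with all libraries, and that of Cd163 was 0.32 and 0.72. The calls of this fit therefore say little about the spread between infarcted hearts. MI 7 d library 3 had 4.36 times as much Cbr2, 5.59 times as much Cd163, 4.65 times as much Retnla and 2.99 times as much Folr2 as the mean of the other 2 MI 7 d libraries, but 0.901 times as much Timd4.

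In the MI 28 d hearts, against sham hearts, Adgre1, Maf and Retnla rose and none of the 9 fell. The 3 rises compare with 29.5% of all tested genes, and 55.1% of all tested genes were called in either direction (25.6% fell). The median of the 9 was 0.78 and that of all genes 0.05. In 3 genes, Adgre1, Maf and Mrc1, all MI 28 d hearts were above all sham hearts (34.7% of all genes), and in 0 were all below (31.7% of all genes).

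Adgre1 averaged 41.7 ± 5.40 CPM at MI 28 d and 23.9 ± 1.37 CPM in sham hearts, a rise of 0.80 ± 0.13 (log2, edgeR adjusted p = 0.0008786). Maf averaged 46.8 ± 36.3 CPM at MI 28 d and 11.1 ± 0.308 CPM in sham hearts (log2 2.07 ± 0.46, edgeR adjusted p = 0.003964). Both kept their call when any 1 library was left out, although the mean of Maf is drawn up by MI 28 d library 3. Without the Adipoq-rich libraries, which left 1 MI 28 d heart, Adgre1 was 0.99 and Maf 1.25 above sham.

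Retnla was at 24.6 ± 24.9 CPM at MI 28 d and 4.01 ± 0.933 CPM in sham hearts (log2 2.61 ± 0.84, edgeR adjusted p = 0.02485), and the groups overlapped. This rise lay in the Adipoq-rich hearts: MI 28 d library 2 had 2.79 CPM, and without those libraries the difference was -0.54. The rise was not called without MI 28 d library 3 (1.45, adjusted p = 0.1052) or without any 1 of the sham libraries (2.43 to 2.72, adjusted p of 0.06748 to 0.08481). Mrc1 was at 76.3 ± 21.5 CPM at MI 28 d and 53.5 ± 3.78 CPM in sham hearts and missed the threshold (log2 0.51 ± 0.22, edgeR adjusted p = 0.07536).

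The other 5 genes were not called, and their intervals were wide. Timd4 differed from sham by 0.78 (95% interval -0.84 to 2.40), Folr2 by 0.24 (-1.24 to 1.73), Cbr2 by -0.08 (-1.41 to 1.24), Cd163 by 0.00 (-1.53 to 1.54) and Vsig4 by 1.82 (-0.37 to 4.01). The means hide opposite hearts: MI 28 d library 3 was above every sham heart for all 5 and library 2 was below every sham heart for all 5. Without library 2, Timd4 (1.30, adjusted p = 0.03409), Vsig4 (2.37, adjusted p = 0.01959) and Mrc1 (0.64, adjusted p = 0.04733) were called higher.

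MI 28 d library 2 was the only one of its group without Adipoq-rich RNA, so leaving out the Adipoq-rich libraries left 1 MI 28 d heart, taken to vary like the hearts of the other groups. In that heart, Timd4 (-2.26), Vsig4 (-2.13), Folr2 (-1.78), Cbr2 (-1.34), Cd163 (-1.31) and Retnla (-0.54) were below sham. Mrc1 (0.20), Adgre1 (0.99) and Maf (1.25) were above it. The Adipoq-rich MI 28 d hearts had, on average, 23.0 times as much Vsig4, 12.7 times as much Retnla, 11.8 times as much Timd4 and 5.52 times as much Folr2 as library 2, but 0.806 times as much Adgre1. With these 3 hearts, stage, the Adipoq-rich RNA and the mesothelial RNA cannot be told apart for MI 28 d library 3.

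**Figure D2:**
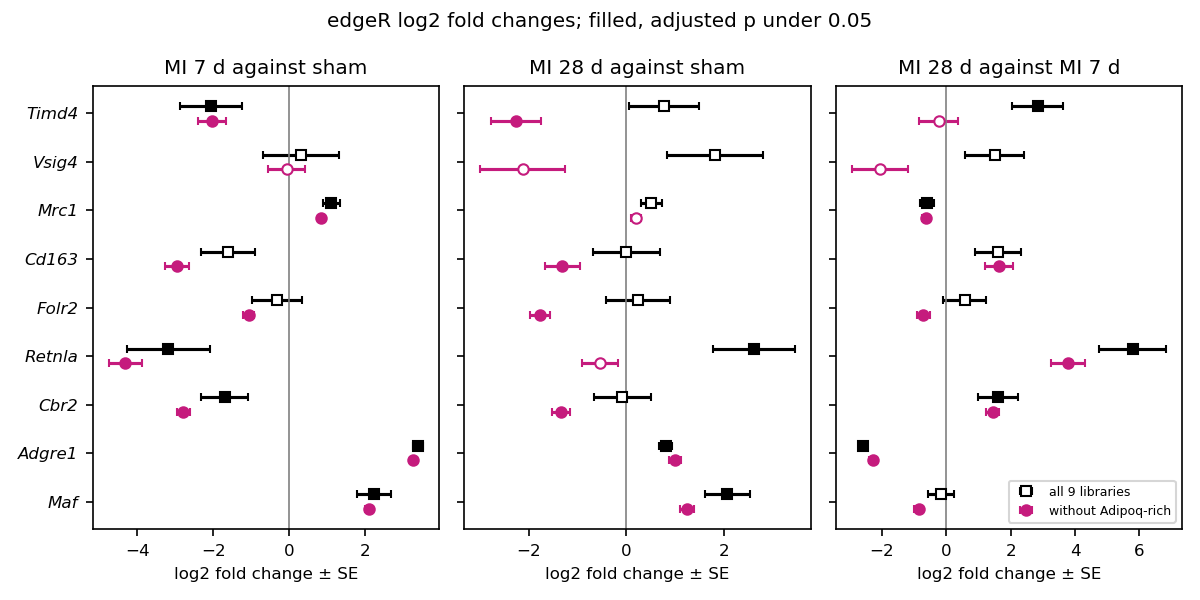
edgeR log2 fold changes ± SE of the 9 genes in the 3 comparisons, with all 9 libraries (squares) and without the Adipoq-rich libraries (circles), filled where the adjusted p is under 0.05. Circles of the comparisons with MI 28 d rest on 1 MI 28 d heart. Against sham, Adgre1, Maf and Mrc1 stay above 0 in both fits. Cbr2 stays below 0, though only at -0.08 at MI 28 d with all libraries. Timd4, Folr2, Vsig4, Cd163 and Retnla change side at MI 28 d against sham when the Adipoq-rich libraries are left out.

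Set directly against the MI 7 d hearts, the MI 28 d hearts had more Retnla, Timd4 and Cbr2 and less Adgre1 and Mrc1. The 3 higher genes compare with 29.1% of all tested genes, the 2 lower with 26.1%, and 55.2% of all tested genes were called. The median of the 9 was 1.501 and that of all genes 0.03. This comparison and the previous ones share hearts, so the values are given side by side and their likeness is not read as a result. Groups did not overlap for Retnla, higher (30.9% of all genes), and for Adgre1, lower (28.9%).

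Retnla was at 24.6 ± 24.9 CPM at MI 28 d and 0.436 ± 0.426 CPM at MI 7 d, a difference of 5.79 ± 1.04 on the log2 scale or 55.5-fold (edgeR adjusted p = 0.001186). It stayed called without any 1 library, and the lowest MI 28 d heart, at 2.79 CPM, was above the highest MI 7 d heart, at 0.914 CPM. Without the Adipoq-rich libraries the difference was 3.78, with 1 MI 28 d heart left. The call was lost with limma voom (adjusted p = 0.05315). Adgre1 was at 41.7 ± 5.40 CPM at MI 28 d and 252 ± 39.5 CPM at MI 7 d, a difference of -2.60 ± 0.13 (edgeR adjusted p = 1.15e-06). It stayed called in all 18 alternative fits. So the general macrophage antigen and the interleukin 4 target moved in opposite directions between these stages.

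Timd4 was at 4.08 ± 4.23 CPM at MI 28 d and 0.568 ± 0.159 CPM at MI 7 d (log2 2.84 ± 0.80, edgeR adjusted p = 0.013). In MI 28 d library 2 it lay within the range of the MI 7 d hearts, and without the Adipoq-rich libraries the difference was -0.24. Cbr2 was at 21.9 ± 14.2 CPM at MI 28 d and 7.21 ± 6.62 CPM at MI 7 d (log2 1.60 ± 0.61, edgeR adjusted p = 0.04834). That call was lost without MI 7 d library 1 or 2, MI 28 d library 1 or 3, or any 1 sham library (adjusted p of 0.07096 to 0.1649). It was also lost in 5 of the other alternative fits (adjusted p of 0.05038 to 0.1141). Without the Adipoq-rich libraries the difference was 1.44, with 1 MI 28 d heart left. Mrc1 was at 76.3 ± 21.5 CPM at MI 28 d and 115 ± 32.9 CPM at MI 7 d (log2 -0.59 ± 0.22, edgeR adjusted p = 0.04233). It was not called without MI 7 d library 3, MI 28 d library 1 or 2, or any 1 sham library (adjusted p of 0.06021 to 0.167).

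Cd163 differed by 1.60 ± 0.71 (edgeR adjusted p = 0.08115), Vsig4 by 1.501 ± 0.91 (adjusted p = 0.1879), Folr2 by 0.56 ± 0.65 (adjusted p = 0.4901) and Maf by -0.17 ± 0.41 (adjusted p = 0.7531), and none was called. Without the Adipoq-rich libraries, with 1 MI 28 d heart left, Cd163 (1.64), Cbr2 (1.44) and Retnla (3.78) were above MI 7 d. Timd4 (-0.24), Vsig4 (-2.07), Folr2 (-0.71), Mrc1 (-0.64), Adgre1 (-2.28) and Maf (-0.86) were then below it.

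**Figure D3:**
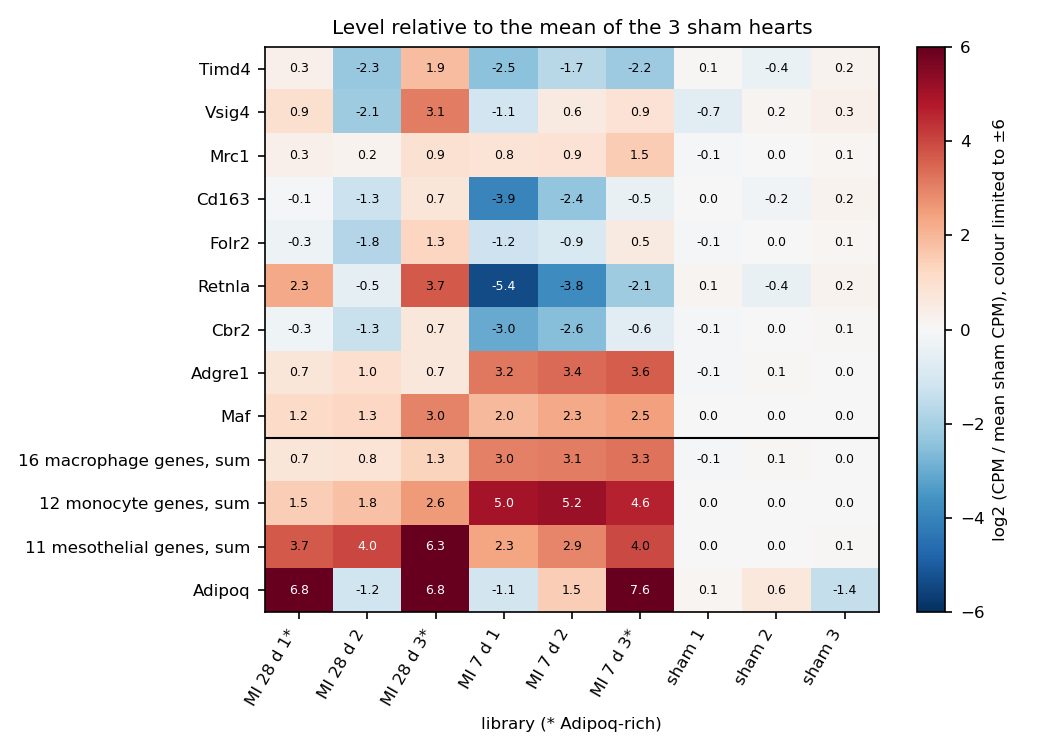
Level of each gene in each library relative to the mean of the 3 sham hearts (log2 of the CPM ratio; colour limited to ±6; asterisks, Adipoq-rich libraries), with summed macrophage, monocyte and mesothelial markers and Adipoq below the line. MI 28 d library 3 is above the sham mean in every row and MI 28 d library 2 is below it in Timd4, Vsig4, Cd163, Folr2, Retnla and Cbr2.

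General macrophage genes rose at both stages, as Adgre1 did. Summed over 16 genes that most macrophages express, such as Cd68, Csf1r and C1qa, they were at 1200, 1258 and 1813 CPM at MI 28 d, 5843, 6014 and 6957 CPM at MI 7 d and 676, 759 and 717 CPM in sham hearts. At MI 7 d 16 of the 16 rose against sham, at MI 28 d 14 rose and 1 fell, and at MI 28 d against MI 7 d all 16 fell. Their median log2 changes were 3.11, 1.07 and -2.07 in the 3 comparisons. Genes of recruited monocytes summed to 814 to 1720 CPM at MI 28 d, 7218 to 10424 CPM at MI 7 d and 282 to 295 CPM in sham hearts. Most of that sum was the fibronectin gene Fn1, which fibroblasts also express. The other 11 genes summed to 156, 181 and 214 CPM at MI 28 d, 373, 340 and 357 CPM at MI 7 d and 64.7, 63.4 and 67.2 CPM in sham hearts. Vcan and Cd44, also expressed outside monocytes, were the largest parts of that sum too. They averaged 76.2 and 58.3 CPM at MI 28 d, 115 and 102 CPM at MI 7 d and 34.0 and 17.2 CPM in sham hearts.

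Set against those 16 genes, each of the 9 except Adgre1 took a smaller share in every MI 7 d heart than in every sham heart. This share was chosen after the values were seen and is a description without a test. Timd4 was 0.00912% ± 0.00280 of the summed macrophage CPM at MI 7 d and 0.335% ± 0.0806 in sham hearts (SD, n = 3 each). Retnla was 0.00658% at MI 7 d and 0.565% in sham hearts, Cbr2 was 0.109% and 3.24% there, and Cd163 was 0.0951% and 2.69%. Mrc1, whose CPM rose, was 1.82% at MI 7 d and 7.47% in sham hearts. Adgre1 was 4.01% ± 0.301 at MI 7 d and 3.33% ± 0.0642 in sham hearts.

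At MI 28 d these shares lay between the other groups for most genes, with 0.257% for Timd4, 1.40% for Folr2, 1.47% for Cbr2, 1.30% for Cd163 and 5.33% for Mrc1, whereas Retnla (1.56%), Vsig4 (0.295%) and Maf (3.03%) were above the sham means of 0.565%, 0.190% and 1.55%. Adgre1, at 3.06%, was below both other means. All 3 MI 28 d hearts were below all sham hearts for Cbr2, Mrc1 and Cd163. In MI 28 d library 2 Timd4 was 0.0395% of the macrophage sum, against 0.242 to 0.389% in sham hearts.

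**Figure D4:**
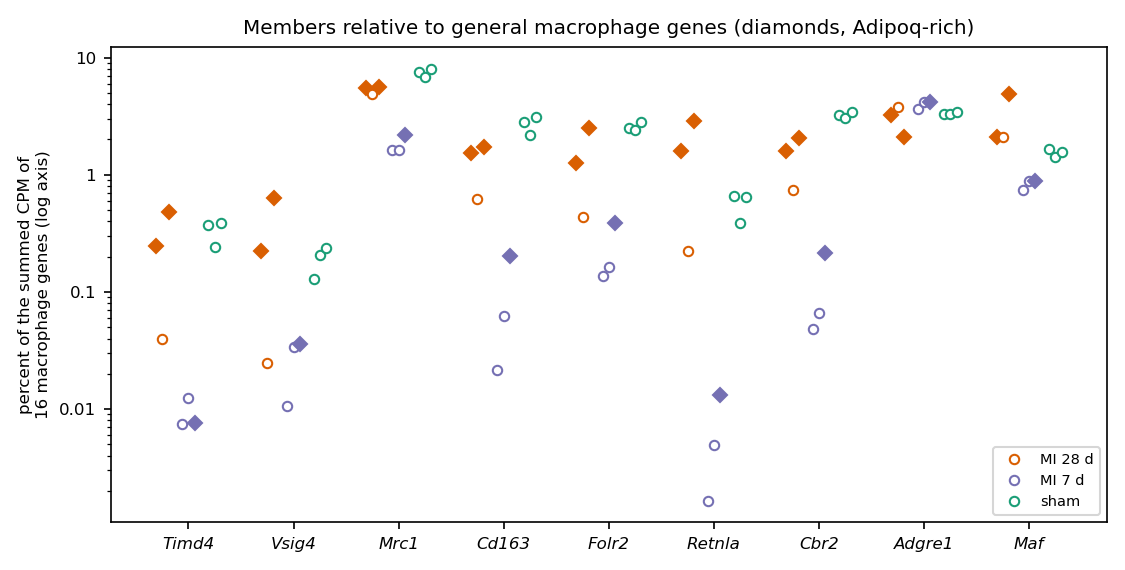
CPM of each gene as a percentage of the summed CPM of 16 general macrophage genes, on a log axis, for each library (filled diamonds, Adipoq-rich). The MI 7 d hearts are below the sham hearts for every gene except Adgre1. All 3 MI 28 d hearts are below the sham hearts for Cbr2, Mrc1 and Cd163 and above them for Maf, and for Timd4, Vsig4 and Retnla they lie on both sides.

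Other genes known from resident or perivascular macrophages were counted next. Of 24 tested, 14 rose and 1 fell at MI 7 d against sham, 13 rose and 1 fell at MI 28 d against sham, and 2 rose and 11 fell at MI 28 d against MI 7 d, with medians of 1.48, 0.96 and -0.37. Over all tested genes 39.0% rose and 35.4% fell at MI 7 d against sham, 29.5% and 25.6% at MI 28 d against sham, and 29.1% and 26.1% at MI 28 d against MI 7 d. Without the Adipoq-rich libraries 16 rose and 3 fell at MI 7 d against sham, where 40.1% and 36.1% of all genes did. The medians were then 0.81, 0.40 and -0.88, the last 2 with 1 MI 28 d heart left. The 1 that fell at MI 7 d was Mgl2, a galactose-type lectin, with 0.914, 1.88 and 2.41 CPM at MI 7 d and 15.4, 14.8 and 16.8 CPM in sham hearts (log2 -3.17 ± 0.35, edgeR adjusted p = 2.349e-05). At MI 28 d it was at 14.0, 6.82 and 13.6 CPM, below every sham heart in all 3. The 1 that fell at MI 28 d was the iron exporter gene Slc40a1 (log2 -1.71 ± 0.20, edgeR adjusted p = 0.0001687).

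Lyve1, a hyaluronan receptor of resident macrophages and of lymphatic endothelium, was at 25.2, 35.1 and 125 CPM at MI 28 d, at 14.1, 5.40 and 14.9 CPM at MI 7 d and at 13.1, 13.8 and 15.2 CPM in sham hearts. It rose at MI 28 d against sham (log2 2.14 ± 0.59, edgeR adjusted p = 0.01199). Without the Adipoq-rich libraries the difference was 1.31, with 1 MI 28 d heart left. Of the 5 other lymphatic endothelial genes tested, 4 rose at MI 28 d against sham (29.5% of all genes did) and 1, Prox1, fell, and the part of those cells in the Lyve1 level was not tested. Cd5l, a macrophage-secreted scavenger protein, was at 2.65, 0.248 and 7.76 CPM at MI 28 d, 8.76, 10.8 and 15.1 CPM at MI 7 d and at most 0.262 CPM in sham hearts.

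Among ligands and regulators, 16 were tested, and 10 rose and 2 fell at MI 7 d, and 10 rose and 1 fell at MI 28 d, each against sham (medians 1.54 and 0.52). Over all tested genes 39.0% rose and 35.4% fell at MI 7 d, and 29.5% and 25.6% at MI 28 d, and 74.4% were called at MI 7 d. Without the Adipoq-rich libraries 12 rose and 4 fell at MI 7 d, where 40.1% and 36.1% of all genes did. The median at MI 28 d, with 1 heart left, was then 0.48. Csf1r, the growth factor receptor that macrophages need, rose at MI 7 d (log2 2.47 ± 0.14, edgeR adjusted p = 3.311e-07) and at MI 28 d (0.56 ± 0.13, adjusted p = 0.005009). Its ligand Csf1 fell slightly at both, to 104, 105 and 107 CPM at MI 7 d, against 131, 131 and 129 CPM in sham hearts (log2 -0.31 ± 0.06, edgeR adjusted p = 0.00164), and its other ligand Il34 rose at MI 28 d (1.65 ± 0.44, adjusted p = 0.011). Il34 was highest in MI 28 d library 3, at 23.2 CPM against 8.30 and 6.76 CPM in the others. Without the Adipoq-rich libraries its difference from sham was 0.72, with 1 MI 28 d heart left. Il4ra, a receptor chain for the cytokines that induce Retnla, rose at MI 7 d (2.13 ± 0.15, adjusted p = 1.07e-06), when Retnla was at its lowest. The cytokine genes Il4 and Il13 had 1 read each in 1 of the 9 libraries and 0 in the others, so they could not be followed.

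Hp, the gene of haptoglobin, which forms the cargo of CD163, was at 239, 6.76 and 127 CPM at MI 28 d, 51.5, 15.9 and 549 CPM at MI 7 d and 2.70, 4.05 and 2.54 CPM in sham hearts, highest in the Adipoq-rich library or libraries of each infarct group. It rose at both stages with all libraries (log2 6.06 ± 1.65 at MI 7 d, edgeR adjusted p = 0.007534) and at MI 7 d without the Adipoq-rich ones (3.44, adjusted p = 6.507e-05). At MI 28 d the difference was 1.12 without them, with 1 heart left. Hmox1, the enzyme that breaks down haem taken up through CD163, rose at MI 7 d (3.46 ± 0.21, adjusted p = 5.188e-07) and at MI 28 d (1.70 ± 0.20, adjusted p = 0.0001765). Of 13 complement genes around VSIG4, 12 rose in each infarct group and 0 fell, against 39.0% and 29.5% of all genes higher. Without the Adipoq-rich libraries 11 rose and 0 fell at MI 7 d, where 40.1% of all genes rose. Cfd, an adipocyte gene as well, was 6.26 at MI 7 d and 6.56 at MI 28 d above sham with all libraries. Without the Adipoq-rich ones its differences were 1.33 and -0.55. C3, the source of the VSIG4 ligands, was at 1323, 1319 and 4632 CPM at MI 28 d, at 851, 1004 and 1415 CPM at MI 7 d and at 295, 278 and 315 CPM in sham hearts.

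Relatives of the 9 come from the same protein families. Of 16 tested, 10 rose and 2 fell at MI 7 d, where 39.0% of all genes rose, and 9 rose and 2 fell at MI 28 d, where 29.5% did, each against sham. Without the Adipoq-rich libraries 9 rose and 2 fell at MI 7 d, where 40.1% and 36.1% of all genes did. The median log2 change at MI 28 d, with 1 heart left, was then 0.51. Havcr2 (TIM-3), a relative of Timd4, rose at MI 7 d by 5.29 ± 0.32 on the log2 scale (edgeR adjusted p = 5.188e-07), where Timd4 fell. Mrc2, the collagen receptor related to Mrc1, rose by 3.03 ± 0.10 (adjusted p = 4.441e-08). Retn, the adipocyte hormone related to Retnla, was at 39.8, 0.0620 and 37.0 CPM at MI 28 d, 0.0481, 1.29 and 75.3 CPM at MI 7 d and 0.254 to 0.460 CPM in sham hearts. Its high libraries were the 3 Adipoq-rich ones, and it differs there from Retnla, which stayed at 0.914 CPM in MI 7 d library 3.

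Over the 9 libraries, Cbr2 and Cd163 were the most alike of the 36 pairs of the 9 genes (Pearson r of log2 CPM 0.98), and Timd4 with Retnla reached 0.88. Adgre1 went with Mrc1 (0.84) and against Cbr2 (-0.75). Outside the 9, the genes most like their mean standardised profile, of 12976 with a mean of at least 1 CPM, were Fcna (0.94), a ficolin of macrophages, Rhbdl1 (0.92), Ermp1 (0.92), Enpp2 (0.92), the enzyme autotaxin, Penk (0.91) and Hlcs (0.91). All 6 had their highest level in MI 28 d library 3, Fcna with 66.6 CPM there and 1.36 to 11.2 CPM in the other 8 libraries, and the libraries share stage and tissue makeup, so these r are descriptions with no p.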

How the data were processed

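Bulk RNA-seq of 9 mouse hearts was analysed as read counts per gene symbol deposited by the authors, whole and not normalized, and titles gave group and replicate. Per the labels' protocols, total RNA was extracted with TRIzol and libraries were made with the KAPA RNA HyperPrep kit. Per the submitters' processing notes, Trim Galore, STAR, featureCounts and mm10 were used; the annotation, strand setting and treatment of multiply mapped reads are unknown here, since no label or header gives them. A total of 24345 of 24964 symbols matched RefSeq.

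R 4.3.3 with edgeR 4.0.16 was used: filterByExpr by group (minimum count 10, minimum total 15; 14347 genes kept), TMM, a means model of all 9 libraries, and two-sided quasi-likelihood tests with p adjusted over all tested genes (Benjamini-Hochberg, threshold 0.05). Dividing the absolute log2 fold change by the root of the F statistic gave the SE. The script was tested on simulated counts. Alternatives were DESeq2 1.42.0, its size factors within edgeR, no TMM scaling, other filters, only the libraries compared, a replicate block, voom of limma 3.58.1, leaving out each library, and leaving out the Adipoq-rich libraries. All sham libraries were kept, since counts of each pair differed beyond counting error (chi-square 1.64 to 1.76 times its degrees of freedom). Pairs within the infarct groups were at 17.9 to 67.4. The check cannot tell separate hearts from separate libraries of the same RNA.

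The 9 genes, the other lists and the alternatives were chosen with earlier results of these data known. All 9 are given; of each other list up to 4 called genes with the largest change and a mean of at least 1 CPM were to be named, and of these only a part is printed. Mgl2 and Slc40a1 against sham, Csf1, Csf1r, Il4ra and Mrc2 against sham, and Plin1 were named after their values were seen. In the main fit each p-value rests on a spread estimate shared by all 9 libraries, not on the groups compared alone. That estimate pools groups whose biological coefficients of variation were 2.76% (sham), 17% (MI 7 d) and 24.1% (MI 28 d). The labels give no batch.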

Additional observations from a re-analysis of the deposited data

Results flagged for a closer look

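The change from sham differed between MI 28 d and MI 7 d for 5 of the 9 genes by the test of the difference itself, edgeR's comparison of MI 28 d with MI 7 d, in which 55.2% of all tested genes were called, so the count is at the background. The difference on the log2 scale was 5.79 for Retnla, 2.84 for Timd4, 1.60 for Cbr2, -0.59 for Mrc1 and -2.60 for Adgre1. Retnla was lower at MI 7 d and higher at MI 28 d than in sham hearts, while the level of Adgre1 was above sham at both. The rise of Retnla at MI 28 d lay in the Adipoq-rich hearts. Without those libraries its difference from sham was -0.54, with 1 MI 28 d heart left. Between MI 28 d and MI 7 d the difference for Timd4 was -0.24 without the Adipoq-rich libraries. Groups of 3 were not searched for single outlying hearts.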

How the results depend on the processing

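Of 486 values of the 9 genes under alternatives, 390 kept direction and call, 45 lost the call, 22 gained it and 29 changed direction. Adgre1 in all 3 comparisons, Maf against sham at both stages and Mrc1 at MI 7 d against sham kept their call in all 18 alternatives. Leaving out 1 library moved the number of the 9 genes called between 3 and 7 at MI 7 d against sham, 2 and 6 at MI 28 d against sham, and 3 and 6 at MI 28 d against MI 7 d. Over all 14347 tested genes it moved the number called between 9822 and 11034, 6509 and 8170, and 7114 and 8467. With only the 6 libraries compared, 3 of the 9 were called at MI 28 d against MI 7 d.

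Direction changed as follows, and the cause was not tested. At MI 28 d against sham Cd163 was -0.0338 with DESeq2, -0.0325 with DESeq2-type size factors, -0.0045 with no filter and -0.198 with voom. Folr2 was -0.23 with voom there. With library size alone Folr2 was 0.024 at MI 7 d against sham and Cbr2 0.19 at MI 28 d against sham; this scaling moved the median of all genes by 0.333, 0.247 and -0.0859 in the 3 comparisons, and under it Timd4 (-1.73, adjusted p = 0.08647) and Cbr2 (-1.34, adjusted p = 0.07903) were not called at MI 7 d against sham. Without the Adipoq-rich libraries Vsig4 was -0.0615 at MI 7 d against sham; Timd4 -2.26, Folr2 -1.78, Cd163 -1.31, Retnla -0.54 and Vsig4 -2.13 at MI 28 d against sham; and Timd4 -0.24, Folr2 -0.71 and Vsig4 -2.07 at MI 28 d against MI 7 d. Leaving out 1 library gave, at MI 28 d against sham, -0.71 to 0.28 for Cbr2, -0.56 to 0.38 for Cd163, -0.85 to 0.70 for Folr2 and -0.47 to 1.30 for Timd4; at MI 28 d against MI 7 d, -0.53 to 1.30 for Folr2, -1.03 to 0.13 for Maf and -0.23 to 2.05 for Vsig4; and at MI 7 d against sham -0.0543 to 0.718 for Vsig4. The call of Cbr2 at MI 28 d against MI 7 d was lost with DESeq2, its size factors, library size alone, the stricter filter and only the 6 libraries compared (adjusted p of 0.05038 to 0.1141). Voom lost the 3 calls of Retnla (adjusted p = 0.134, 0.05577 and 0.05315) and that of Timd4 at MI 28 d against MI 7 d (0.094).

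Replicate numbers did not pair the hearts: same-numbered libraries of MI 7 d and sham correlated at -0.00236 to 0.021, those of MI 28 d and sham at -0.0245 to 0.00859, those of MI 28 d and MI 7 d at -0.0909 to 0.304, and 4 of 9 libraries correlated best with their own number. With the replicate number as a block, Folr2 was -0.15 and Cd163 -0.197 at MI 28 d against sham, and Cd163 was called at MI 7 d against sham (-1.96, adjusted p = 0.01012). Low counts limit Timd4, Vsig4 and, at MI 7 d, Retnla.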
